A study of Homo sapiens with 51 samples.

Results

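The respiratory chain genes described here are 84 of the 58051 gene entries of a count table from the established human embryonic stem cell line H1. They were taken by name among protein-coding genes, by a rule that uses no values. The choice was made with earlier results of these data known. Of the 84, 71 are nuclear genes named for complex I (NDUF symbols, 38 genes), complex II (SDHA to SDHD, 4), complex III (UQCR symbols, 9) and complex V, the ATP synthase (ATP5 symbols, 20). They were grouped by symbol alone, so not each of them need be a subunit. The other 13 are all the protein-coding genes of the mitochondrial genome, with 7 subunits of complex I, 1 of complex III, 3 of complex IV and 2 of complex V. Another 67 entries with matching names were not annotated as protein coding and were left out. Of the 84, 82 passed the filter on low counts (69 nuclear and 13 mitochondrially encoded). NDUFA4L2, a relative of NDUFA4 known from hypoxic cells, had 80 counts over the 51 libraries and at most 5 in any of them, and ATP5MGL had 19 counts and at most 2, so neither was tested.

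The 51 RNA-seq libraries formed 17 groups of 3. Untreated cells were kept in mTeSR1 on Matrigel. Treated cells were moved to TeSR E5 with insulin at 3.2 µM, FGF2 at 20 ng/mL and LY29004 (spelled as in the labels) at 1 µM. To this were added Activin at 100 ng/mL with BMP4 at 10 ng/mL (Activin+BMP4), or BMP4 at 50 ng/mL without Activin (BMP4), for 1, 6, 12, 24, 36, 48, 72 or 96 h. The medium and the growth factors changed together, so they cannot be told apart against untreated cells, and the BMP4 dose also differs between the conditions. The labels name 400 ng of total RNA as input and no enrichment step. Replicates are numbered without a statement that they came from separate cultures. The p-values therefore measure only how these samples spread, which may be technical.

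The respiratory chain passes electrons from NADH and succinate through complexes I, II and III to complex IV and oxygen, and pumps protons that drive ATP synthesis by complex V. Most subunits are encoded in the nucleus and imported. The mitochondrial genome codes for the core membrane subunits of complexes I, III, IV and V, and complex II is wholly nuclear. Its genes are transcribed as long precursors from both strands and cut apart, so levels of its messages are linked. Pluripotent cells are known for relying much on glycolysis, and differentiation is often accompanied by a shift towards respiration.

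Libraries held 22.8 M to 30.4 M counts (median 24.9 M). At 96 h against untreated cells 8 of 8 endoderm markers were higher in each condition, with a median log2 fold change of 9.23 in Activin+BMP4 and 5.11 in BMP4. Of 10 mesoderm and amnion markers 8 were higher in Activin+BMP4 and 10 in BMP4, and of 9 pluripotency markers 8 and 9 were lower. Set against Activin+BMP4 at 96 h, BMP4 had 8 of 8 endoderm markers lower. Of the 10 mesoderm and amnion markers 9 were higher and 1 lower in BMP4, and of the 9 pluripotency markers 1 was higher and 2 lower. The pluripotency factor POU5F1 was still at 810 ± 115 CPM (counts per 1 M of the scaled library total) at 96 h in Activin+BMP4 and 633 ± 20.7 CPM in BMP4, against 1570 ± 54.5 CPM in untreated cells (mean ± SD, n = 3). Of 5 fibroblast and blood markers tested, 2 were higher and 2 lower in Activin+BMP4, and 4 higher and 1 lower in BMP4. These are bulk samples, in which fewer cells of a type and less RNA per cell cannot be told apart.

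Sequences of the members bear on how counts were assigned. MT-ATP8 and MT-ATP6, neighbouring subunits of complex V, share 46 bases of the mitochondrial genome at chrM:8527-8572 (GRCh38, + strand), shown here because a read within them could belong to either gene. The capitals mark the start codon of MT-ATP6.
MT-ATP8 and MT-ATP6: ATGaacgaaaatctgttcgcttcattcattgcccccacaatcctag
MT-ND4L and MT-ND4 share 7 bases at chrM:10760-10766. MT-ATP6 also has a nuclear copy on chromosome 1, the pseudogene MTATP6P1 at chr1:633696-634376 (GRCh38, + strand), with the same 681 bases save 10 differences (98.53% identity) and a longest identical run of 141 bases. The first 60 bases of the gene (chrM:8527-8586) and of the copy (chr1:633696-633755) are shown because they contain the first of those differences, G19A counted from the start of the gene, in capitals.
MT-ATP6: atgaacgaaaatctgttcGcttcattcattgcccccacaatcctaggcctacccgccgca
MTATP6P1: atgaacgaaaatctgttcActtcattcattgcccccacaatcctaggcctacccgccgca
Over all libraries the counts given to MTATP6P1 were 16.3% of those of MT-ATP6. MTND2P28, 98.37% identical to MT-ND2 over the aligned bases, had 3.75% of its counts. MTCO1P12 had 0.378% of the counts of MT-CO1 and MTND1P23 had 0.0809% of those of MT-ND1. How reads that match several places were divided is not given in the sources used here, so values of MT-ATP6, MT-ATP8 and MT-ND2 are uncertain to that extent. Whether the counting used strand is likewise not stated, and MT-ND6, the only member read from the other strand, cannot be told apart from reads antisense to it.

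The summed level of the mitochondrially encoded members was lowest late in both conditions, while that of the nuclear members stayed within 16% over all libraries. In untreated cells the 13 mitochondrial genes summed to 19199, 19328 and 23113 CPM (20547 ± 2223, SD, n = 3). At 72 h they summed to 5153, 7653 and 7786 CPM in Activin+BMP4 (6864 ± 1484) and to 11411, 5679 and 10073 CPM in BMP4 (9054 ± 2998). At 96 h the sums were 16003, 10049 and 12768 CPM in Activin+BMP4 (12940 ± 2981) and 6117, 9626 and 13558 CPM in BMP4 (9767 ± 3722). All 12 libraries of 72 and 96 h lay below the lowest untreated library, by group means 2.99-fold and 2.27-fold at 72 h and 1.59-fold and 2.10-fold at 96 h for Activin+BMP4 and BMP4. The same held for 2 earlier groups, with smaller distances. Libraries at 12 h in Activin+BMP4 summed to 15903, 10886 and 17730 CPM (14840 ± 3544) and those at 6 h in BMP4 to 18075, 13345 and 16046 CPM (15822 ± 2373), all below untreated cells and overlapping with the late libraries. At 48 h in BMP4 the sums were 23398, 22978 and 10936 CPM, so 1 library lay among the late ones. At 1 h in BMP4 the sums were 31113, 27671 and 32061 CPM (30282 ± 2310), the highest of the 17 groups, with no overlap with untreated cells.

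The nuclear members summed to 6196, 6140 and 6115 CPM in untreated cells (6151 ± 41.5). Group means ran from 5567 CPM at 48 h in Activin+BMP4 to 6159 CPM at 1 h in Activin+BMP4, a 1.11-fold range, against a 4.41-fold range of the mitochondrial group means. At 72 and 96 h the nuclear sum was 94.6% and 94.6% of the untreated mean in Activin+BMP4 and 93.9% and 94.1% in BMP4. Replicates also spread differently: the coefficient of variation within a group had a median of 1.48% for the nuclear sum and 17.6% for the mitochondrial sum, with highest values of 6.05% and 38.1%. The mitochondrial members made up 0.51% to 3.12% of all counts of a library and the nuclear members 0.54% to 0.634%.

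**Figure D1:**
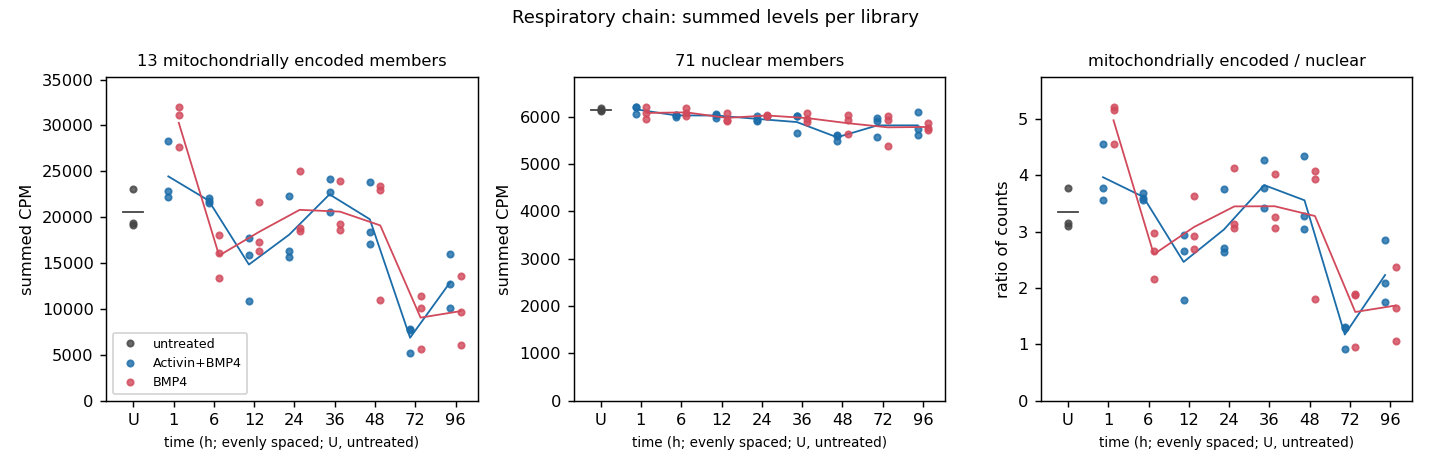
Summed CPM of the 13 mitochondrially encoded and the 71 nuclear members and the ratio of their summed counts, 1 point per library, against time after the growth factors (h, time points evenly spaced, U for untreated), with lines through the means of 3 libraries for each condition. The mitochondrial sums of 72 and 96 h, and those of 12 h in Activin+BMP4 and 6 h in BMP4, all lie below 19199 CPM, the lowest untreated library, while the nuclear sums of all libraries lie between 5377 and 6217 CPM.

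The ratio of mitochondrially encoded to nuclear counts within a library needs no scaling between libraries. It was 3.10, 3.15 and 3.78 in untreated cells (3.34 ± 0.380). It fell to 0.925, 1.29 and 1.30 at 72 h in Activin+BMP4 (1.17 ± 0.216), and was 2.85, 1.75 and 2.09 at 96 h (2.23 ± 0.565). In BMP4 it was 1.89, 0.957 and 1.87 at 72 h (1.58 ± 0.535) and 1.06, 1.64 and 2.37 at 96 h (1.69 ± 0.654). None of these late libraries reached the lowest untreated ratio, and neither did those of 12 h in Activin+BMP4 (2.66, 1.79 and 2.94) or of 6 h in BMP4 (2.97, 2.16 and 2.66). On the log2 scale the mean differences from untreated cells were -1.52 and -0.61 in Activin+BMP4 and -1.15 and -1.05 in BMP4 at 72 and 96 h, with SDs within the late groups of 0.28, 0.36, 0.56 and 0.58 and of 0.16 in untreated cells. The highest ratio of any library was 5.22, at 1 h in BMP4. As a score over chosen members, the ratio is given without a test.

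Gene by gene, levels per kilobase set the classes far apart already in untreated cells. The length used was that of all annotated exons of a gene together, which is longer than a single transcript for genes with many isoforms and lowers their values. The 13 mitochondrial genes ranged from 656 to 3227 CPM per kb with a median of 1625, led by MT-ATP6, MT-CO2 (3048) and MT-CO3 (2768), and MT-ND5 was lowest. The nuclear members tested had a median of 23.6 CPM per kb, from 2.64 to 354, the highest being ATP5F1B, the catalytic beta subunit of complex V. Its order over ATP5F1A, the alpha subunit, rests largely on that length: they had 821 and 688 CPM, over 2322 and 10908 bases of exons. Over the 17 group means the level of a nuclear member varied 1.29-fold at the median (1.08-fold to 1.81-fold), and 64 of 69 varied less than 1.5-fold. The mitochondrial genes varied 2.49-fold to 6.87-fold, with a median of 4.31-fold. MT-ND3 had the narrowest and MT-ND1 the widest range.

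The first comparisons set each time against the same 3 untreated libraries, which all 16 comparisons share. Calls required a change of at least 1.5-fold and, in edgeR's quasi-likelihood test with Benjamini-Hochberg adjustment, an adjusted p under 0.05. Up to 48 h no mitochondrial gene was called in either condition with edgeR or DESeq2. At an unadjusted p under 0.05 there were 4 of 13 at 12 h and 1 at 48 h in Activin+BMP4, and 8 at 1 h and 1 at 48 h in BMP4. The share of all genes at an unadjusted p was not counted, here or below. Of all genes tested, 1.82%, 11.5%, 13.2%, 14.8%, 17.6% and 25.1% were called at 1, 6, 12, 24, 36 and 48 h in Activin+BMP4, and 2.41%, 10.5%, 11.5%, 13.4%, 15.2% and 21.4% in BMP4. At 1 h in BMP4 all 13 mitochondrial genes had every library above every untreated one, but with a median log2 fold change of 0.50 only MT-ND3 passed at the adjusted p (0.30, adjusted p = 0.041), and not the fold threshold. In the other direction, 11 of 13 had every library below every untreated one at 12 h in Activin+BMP4 (median -0.45) and 11 at 6 h in BMP4 (median -0.38), and none of these passed. How many of all genes lay apart from untreated cells in this way was not counted.

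At 72 h 13 of 13 mitochondrial genes fell in each condition, by more than 2-fold for each gene in Activin+BMP4. Of all genes tested 34.2% were called at that time in Activin+BMP4 and 28.1% in BMP4. The median log2 fold change of the 13 was -1.58 in Activin+BMP4 and -1.17 in BMP4, beside 0.03 and 0.03 for all genes tested. At 96 h 7 of 13 were called lower in Activin+BMP4 (median -0.71) and 12 of 13 in BMP4 (median -1.08), where 41.7% and 36.6% of all genes were called. In all of these late comparisons each of the 13 genes had its 3 treated libraries below its 3 untreated ones, a count not made for all genes. The 13 share libraries, and all but MT-ND6 are read from the same strand, so such counts are not 13 independent results.

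MT-ND1, a core subunit of complex I at chrM:3307-4262, showed the largest decrease at 96 h in each condition. It stood at 1235, 1212 and 1465 CPM in untreated cells and at 694, 399 and 498 CPM in Activin+BMP4 at 96 h, with 295, 484 and 675 CPM in BMP4. Every treated library was below every untreated one, and the log2 fold changes were -1.30 ± 0.27 (SE, adjusted p = 3.99e-05) and -1.43 ± 0.27 (adjusted p = 1.08e-05). At 72 h the libraries gave 221, 342 and 346 CPM in Activin+BMP4 and 625, 264 and 532 CPM in BMP4, and the changes were -2.10 ± 0.27 and -1.46 ± 0.27.

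MT-ND3, another core subunit of complex I at chrM:10059-10404, changed least. Its levels were 292, 290 and 311 CPM in untreated cells, 280, 246 and 237 CPM at 96 h in Activin+BMP4 and 209, 239 and 238 CPM at 96 h in BMP4. The groups did not overlap, but the changes of -0.23 ± 0.10 (adjusted p = 0.0392) and -0.38 ± 0.10 (adjusted p = 8.89e-04) stayed under 1.5-fold. At 72 h its levels of 123, 166 and 152 CPM in Activin+BMP4 and 208, 182 and 196 CPM in BMP4 gave changes of -1.02 ± 0.10 and -0.61 ± 0.10, which were called. Without Activin+BMP4 96 h replicate 2 or 3, or without untreated replicate 3, the adjusted p of MT-ND3 at 96 h in Activin+BMP4 no longer passed, and the same held for MT-CYB (change -0.71), which codes for cytochrome b of complex III.

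MT-ND6, the complex I subunit on the opposite strand at chrM:14149-14673, had 324, 334 and 388 CPM in untreated cells. At 72 h it had 102, 141 and 152 CPM in Activin+BMP4 and 214, 106 and 211 CPM in BMP4, all below untreated cells (changes of -1.40 ± 0.25 and -0.98 ± 0.24). At 96 h it had 321, 203 and 265 CPM in Activin+BMP4, where the first library came close to the lowest untreated one and the change of -0.41 ± 0.24 did not pass (adjusted p = 0.133). In BMP4 it had 113, 168 and 254 CPM at 96 h, a change of -0.96 ± 0.24 (adjusted p = 6.32e-04).

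The complex IV genes, which code for the catalytic core of cytochrome c oxidase, were lower at 72 h in the same way. MT-CO1, the most counted member, stood at 3836, 3951 and 4622 CPM in untreated cells, at 1199, 1730 and 1880 CPM at 72 h in Activin+BMP4 and at 2532, 1293 and 2204 CPM at 72 h in BMP4. At 96 h it had 3682, 2321 and 3263 CPM in Activin+BMP4, all under the untreated range and the first of them close to it, and the change of -0.42 did not pass (adjusted p = 0.129). In BMP4 at 96 h its libraries had 1270, 1974 and 3043 CPM. MT-CO2 and MT-CO3 were called at 96 h in Activin+BMP4 (-0.75 and -0.84), as were MT-ATP6 and MT-ATP8 of complex V (-0.80 and -0.81), MT-CYB, MT-ND1 and MT-ND2 (-1.04 ± 0.17). MT-ND4, MT-ND4L and MT-ND5 did not pass there (-0.52, -0.57 and -0.44).

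**Figure D2:**
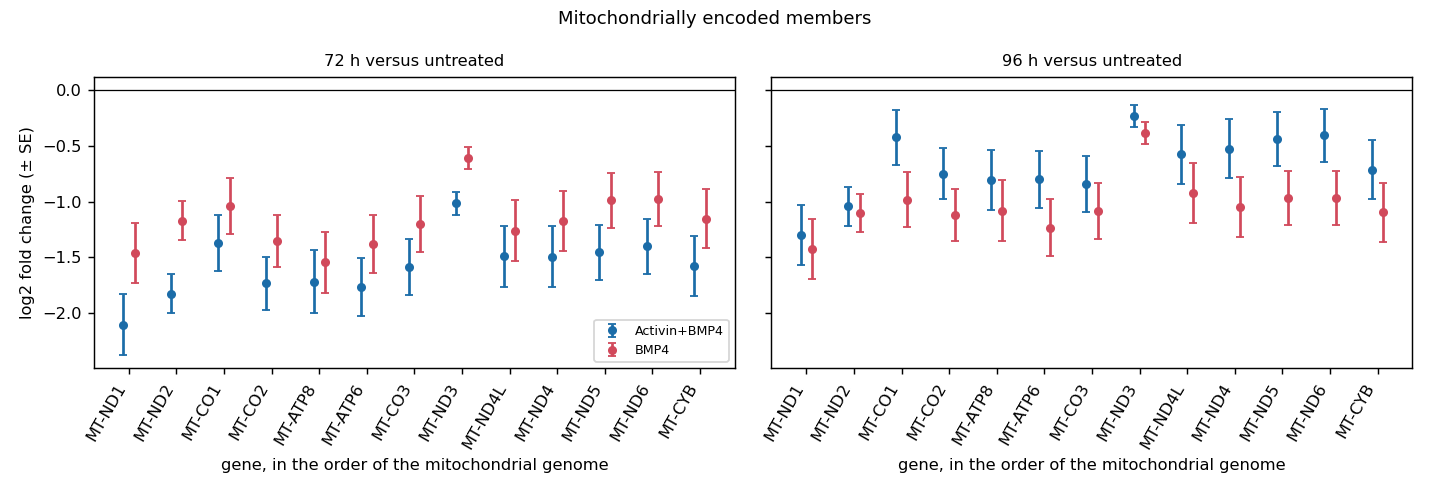
Log2 fold change (± SE, fit over 51 libraries) of each mitochondrially encoded member against the 3 untreated libraries at 72 h and 96 h, in the order of the genes on the mitochondrial genome. MT-ND1 is lowest and MT-ND3 nearest to 0 at 96 h in each condition, and at 72 h the values in Activin+BMP4 run from -2.10 to -1.02.

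The composition of the mitochondrial sum also shifted late. MT-ND1 made up 3.90% to 5.47% of the sum in the 12 libraries of 72 and 96 h (median 4.56%) and 5.60% to 6.98% in the 39 earlier ones (median 6.24%). It was the only one of the 13 whose late and earlier libraries did not overlap. The share of MT-ND3 had a median of 2.06% late (1.75% to 3.42%) and 1.40% earlier (1.04% to 2.11%), so the ranges overlapped. MT-ND6 had medians of 1.91% and 1.67%, and MT-CO1 of 22.7% and 21.1%, again with overlap. In Activin+BMP4 the mean share of MT-ND1 was 4.41 ± 0.0939% at 72 h and 4.07 ± 0.235% at 96 h, and in BMP4 5.14 ± 0.428% and 4.94 ± 0.105%, against 6.35 ± 0.0800% in untreated cells (SD, n = 3). Shares within a sum are not independent, and no test was made of them.

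**Figure D3:**
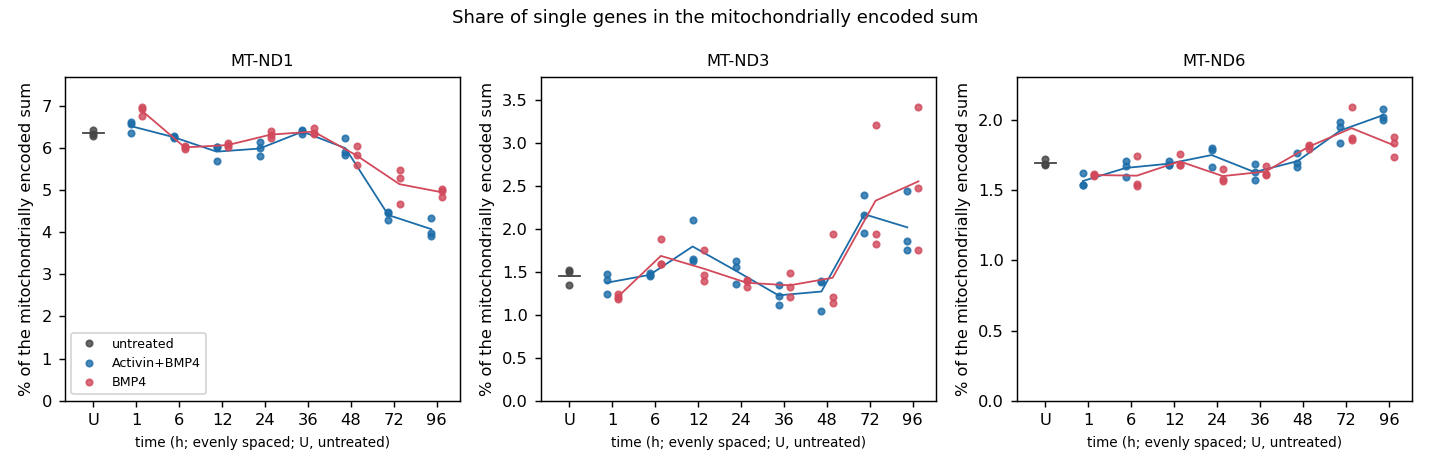
Share (%) of MT-ND1, MT-ND3 and MT-ND6 in the summed level of the 13 mitochondrially encoded members, 1 point per library, against time (h, time points evenly spaced, U for untreated), with lines through group means. The MT-ND1 shares of 72 and 96 h lie at or below 5.47% and all earlier ones at or above 5.60%.

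The median log2 difference of the 13 genes, BMP4 minus Activin+BMP4, was 0.39 at 72 h and -0.37 at 96 h. Between the conditions 1 of the 13 was called at 72 h and 0 at 96 h, and the summed levels overlapped at both times. The order of the conditions is thus not established at either time. From 72 h to 96 h in Activin+BMP4 13 of 13 mitochondrial genes rose again, with a median log2 change of 0.92, where 8.48% of all genes tested were called. MT-ND6 changed by 1.00 ± 0.25 (adjusted p = 0.00139), MT-ND3 by 0.79 ± 0.10 and MT-ND1 by 0.81 ± 0.27. The count was 8 without Activin+BMP4 72 h replicate 1 or without Activin+BMP4 96 h replicate 1. In BMP4 no gene of the 13 was called between these times with edgeR or DESeq2 (median 0.12), and 1 had an unadjusted p under 0.05, while 10.6% of all genes tested were called. There was 1 call without BMP4 96 h replicate 1.

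The difference between those changes, tested as an interaction, was called for 3 of 13 mitochondrial genes, all with a smaller rise in BMP4, beside 11.6% of all genes tested. MT-ND2 had a difference of -0.71 ± 0.24 (adjusted p = 0.0239), MT-ND5 of -1.0 ± 0.35 (adjusted p = 0.0262) and MT-ND6 of -0.98 ± 0.35 (adjusted p = 0.0291), and the median of the 13 was -0.77. MT-ND3 passed at the adjusted p with a change under 1.5-fold (-0.56 ± 0.14). The count rested on few libraries. It was 0 without replicate 1 of Activin+BMP4 72 h, Activin+BMP4 96 h, BMP4 72 h or BMP4 96 h, and without BMP4 72 h replicate 3. It was 5 without Activin+BMP4 72 h replicate 3, 6 without Activin+BMP4 96 h replicate 2, 10 without BMP4 72 h replicate 2 and 11 without BMP4 96 h replicate 3.

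Set directly against each other at the same times, the conditions differed in the mitochondrial genes by amounts that mostly did not pass the test. The median log2 difference of the 13, BMP4 minus Activin+BMP4, was 0.34, -0.50, 0.32, 0.16, -0.12, -0.03, 0.39 and -0.37 at 1, 6, 12, 24, 36, 48, 72 and 96 h. Taken without sign, the median difference of the 13 was 0.34, 0.50, 0.32, 0.16, 0.12, 0.04, 0.39 and 0.37. For all genes tested it was 0.07, 0.09, 0.11, 0.19, 0.18, 0.24, 0.23 and 0.325. The 13 were thus above all genes at 1, 6, 12, 72 and 96 h and below them at 24, 36 and 48 h. At 6 h all 13 genes had every BMP4 library below every Activin+BMP4 one, though none passed (lowest adjusted p = 0.134). The share of all genes without overlap was not counted there either. Over 8 times 1 of 104 gene-by-time tests was called with edgeR and 1 with DESeq2, with 13 at an unadjusted p under 0.05. Of all genes tested 0.0102%, 1.21%, 2.96%, 7.89%, 10.0%, 16.0%, 15.8% and 24.6% were called at 1, 6, 12, 24, 36, 48, 72 and 96 h. The call was MT-ND2 at 72 h, higher in BMP4 by 0.65 ± 0.17 (adjusted p = 0.00212). Its libraries had 415, 530 and 487 CPM in Activin+BMP4 and 846, 524 and 884 CPM in BMP4, so the second BMP4 library lay within the other group. Without BMP4 72 h replicate 2 there were 7 calls at 72 h, and without Activin+BMP4 72 h replicate 1, BMP4 72 h replicate 1 or BMP4 72 h replicate 3 there were 0. At 96 h MT-ND6 passed at the adjusted p with a difference of -0.56 (adjusted p = 0.0492), under 1.5-fold. Without Activin+BMP4 96 h replicate 2 there were 4 calls at 96 h, and without BMP4 96 h replicate 3 there were 8.

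Nuclear members changed by little, and many passed at the adjusted p alone, as did many of all genes. Against untreated cells 3 of 552 gene-by-time tests over the 69 members were called in Activin+BMP4 (4 with DESeq2, 230 at an unadjusted p under 0.05), all at 96 h. In BMP4 0 of 552 were called (0 with DESeq2, 220 at an unadjusted p under 0.05). Between the conditions 0 of 552 were called (0 with DESeq2, 115 at an unadjusted p under 0.05), and in the 3 comparisons of 72 h with 96 h 0 of 207 (0 with DESeq2, 58 at an unadjusted p under 0.05). The percentages of all genes called, given above, were higher in each of these comparisons. They refer to calls and not to the unadjusted p, for which no share of all genes was counted.

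At the adjusted p alone, 43 of 69 nuclear members differed from untreated cells at 72 h in Activin+BMP4 (12 higher and 31 lower, 62.3%), where 64.1% of all genes did. At 96 h there were 43 (17 higher and 26 lower), where 69.7% of all genes passed. In BMP4 there were 31 at 72 h (7 higher and 24 lower), where 58.3% of all genes passed, and 43 at 96 h (16 higher and 27 lower), where 65.4% did. Each of these shares of members at 72 and 96 h was near or below that of all genes. At 48 h in Activin+BMP4 the share was above it. There 41 of 69 members passed (4 higher and 37 lower, 59.4%), beside 10309 of 19603 genes tested. The median log2 fold change at 48 h was -0.14 for the members and 0.03 for all genes. At 72 and 96 h the median log2 fold change of the 69 was -0.09 and -0.08 in Activin+BMP4 and -0.08 and -0.06 in BMP4. That of all genes tested ran from 0.03 to 0.04 at those times. Between the conditions 20 members passed at 48 h, where 41.0% of all genes did, and 31 at 96 h (18 higher in BMP4 and 13 lower), where 54.4% of all genes did.

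The complexes looked alike in their sums. Complex I summed to 2087 CPM in untreated cells, 1972 CPM at 96 h in Activin+BMP4 and 1997 CPM at 96 h in BMP4. Complex II summed to 319, 309 and 303 CPM, complex III to 795, 755 and 727 CPM and complex V to 2948, 2784 and 2759 CPM in the same order. Each sum was lowest at 48 h in Activin+BMP4. Single subunits of a complex went both ways: at the adjusted p alone 8 of 37 complex I members were higher and 11 lower at 96 h in Activin+BMP4, and 10 and 11 in BMP4. For complex V the counts were 4 and 8 of 19 in Activin+BMP4 and 3 and 10 in BMP4, for complex III 4 and 5 of 9 and then 2 and 5, and for complex II 1 and 2 of 4 and then 1 and 1. Of all 19603 genes tested, 7290 were higher and 6381 lower in Activin+BMP4, and 6930 and 5889 in BMP4. Changes both ways are therefore not particular to the complexes.

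**Figure D4:**
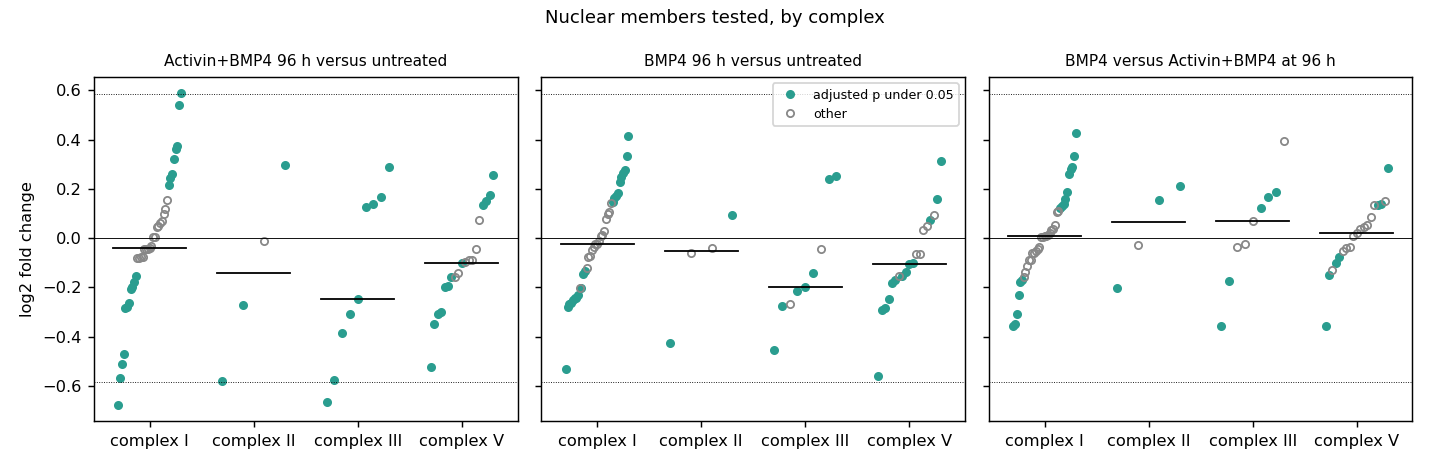
Log2 fold change of each of the 69 nuclear members tested, by complex, at 96 h in Activin+BMP4 against untreated cells, in BMP4 against untreated cells and in BMP4 against Activin+BMP4, with filled points for an adjusted p under 0.05, bars at the median and dotted lines at 1.5-fold. Only 3 points, all in the first panel, lie beyond 1.5-fold, from -0.68 for NDUFA9 to 0.59 for NDUFB3.

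In complex I, NDUFA9, an accessory subunit at the joint of the peripheral and the membrane arm (chr12:4649095-4694317, GRCh38), had the widest range of the nuclear members. Its levels were 39.5, 39.4 and 41.0 CPM in untreated cells, 22.2, 28.2 and 24.4 CPM at 96 h in Activin+BMP4 and 33.3, 38.0 and 29.5 CPM at 96 h in BMP4. All treated libraries were lower than the untreated ones, and the changes were -0.68 ± 0.10 (adjusted p = 3.78e-08) and -0.25 ± 0.09 (adjusted p = 0.0168). The conditions did not overlap, with BMP4 higher by 0.43 ± 0.10 (adjusted p = 2.02e-04). At 72 h the libraries of the conditions overlapped. Without BMP4 96 h replicate 3 the change in BMP4 no longer passed.

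NDUFB3, an accessory subunit of the membrane arm (chr2:201071433-201085750), was the nuclear member called higher. It had 20.1, 19.9 and 20.0 CPM in untreated cells, 31.7, 29.9 and 28.8 CPM at 96 h in Activin+BMP4 and 26.9, 26.6 and 26.4 CPM at 96 h in BMP4, with no overlap between the 3 groups. The changes were 0.59 ± 0.06 (adjusted p = 1.65e-12) and 0.41 ± 0.06 (adjusted p = 2.26e-08). Its means were 26.9 CPM at 24 h in each condition and 22.2 and 22.7 CPM at 48 h, so the course had a first high point before the late one.

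A further 3 complex I subunits are described because they lay near the fold threshold, chosen after their values were seen. NDUFS3, a core subunit of the peripheral arm, had 61.9, 57.0 and 56.7 CPM in untreated cells and 40.1, 37.2 and 41.2 CPM at 96 h in Activin+BMP4, a change of -0.57 ± 0.06, with 46.4, 48.5 and 49.5 CPM in BMP4 (-0.28 ± 0.06). NDUFB9 was lower in each condition (-0.47 ± 0.05 and -0.53 ± 0.05), from 93.1 ± 2.02 CPM to 67.3 ± 1.84 and 64.5 ± 3.61 CPM. NDUFA7 was higher in each (0.54 ± 0.08 and 0.23 ± 0.08). NDUFA4, now placed with complex IV by many authors though named for complex I, had 147, 146 and 150 CPM in untreated cells, 121, 122 and 127 CPM in Activin+BMP4 and 135, 144 and 142 CPM in BMP4. Only the change in Activin+BMP4 passed at the adjusted p (-0.26 ± 0.06 against -0.08 ± 0.06).

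In complex II, which is also the succinate dehydrogenase of the citric acid cycle, the membrane anchors went opposite ways. SDHD (chr11:112086773-112120013) had 84.2, 85.2 and 82.2 CPM in untreated cells, 51.7, 56.5 and 60.2 CPM at 96 h in Activin+BMP4 and 60.6, 64.0 and 62.9 CPM in BMP4. All treated libraries were lower, with changes of -0.58 ± 0.05 (adjusted p = 8.67e-15) and -0.42 ± 0.05 (adjusted p = 6.96e-11), the first just short of 1.5-fold. SDHC, its partner in the membrane, was higher, at 127 ± 0.757 CPM in untreated cells, 156 ± 4.98 CPM in Activin+BMP4 (0.30 ± 0.03) and 136 ± 2.92 CPM in BMP4 (0.10 ± 0.03). SDHB, the iron-sulfur subunit, had 41.4 ± 1.69, 41.1 ± 1.07 and 40.3 ± 2.53 CPM.

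In complex III, UQCRH, the hinge protein near cytochrome c1 (chr1:46303631-46316776), had 186, 186 and 182 CPM in untreated cells, 117, 127 and 127 CPM at 96 h in Activin+BMP4 and 135, 134 and 135 CPM in BMP4. No treated library reached the untreated ones, and the changes were -0.58 ± 0.05 and -0.45 ± 0.05. UQCRHL, its close relative at chr1:15807169-15809348, was called lower in Activin+BMP4 (-0.66 ± 0.18, adjusted p = 0.00131), with 6.55, 7.40 and 6.62 CPM in untreated cells and 4.08, 4.45 and 4.46 CPM at 96 h. In BMP4 its 4.88, 6.34 and 5.83 CPM gave a change that did not pass (-0.27, adjusted p = 0.182). The aligned transcripts of the pair are 91.83% identical with an identical run of up to 178 bases, and UQCRHL held 3.57% of the counts of UQCRH, so how much of its level belongs to UQCRH was not tested.

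UQCRC1, a core protein of complex III (chr3:48599002-48610976), separated the conditions late. It had 155, 148 and 148 CPM in untreated cells, 160, 163 and 174 CPM at 96 h in Activin+BMP4 and 129, 128 and 132 CPM at 96 h in BMP4. The conditions lay on opposite sides of the untreated libraries, and the difference was -0.36 ± 0.04 (adjusted p = 3.15e-10). At 48 h the means had been 131 and 131 CPM, and at 72 h they were 166 CPM in Activin+BMP4 and 134 CPM in BMP4 (-0.32 ± 0.04).

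In complex V, ATP5PD, a subunit of the peripheral stalk (chr17:75038863-75046985), was also lower in BMP4. It had 106, 105 and 103 CPM in untreated cells, 121, 123 and 130 CPM at 96 h in Activin+BMP4 and 98.5, 97.4 and 96.7 CPM at 96 h in BMP4, a difference of -0.36 ± 0.04 (adjusted p = 3.57e-11) without overlap. The order was the same at 24 h (-0.20 ± 0.04) and 36 h (-0.24 ± 0.04), while at 72 h the groups overlapped. ATP5PB, another subunit of that stalk, went the other way at 96 h. It had 168 ± 1.57 CPM in untreated cells, 132 ± 4.48 CPM in Activin+BMP4 and 161 ± 6.20 CPM in BMP4, which was higher than Activin+BMP4 by 0.28 ± 0.03.

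The c ring of complex V comes from 3 genes whose mature product is the same. ATP5MC1 had 32.5, 31.2 and 34.5 CPM in untreated cells, 21.3, 22.0 and 25.1 CPM at 96 h in Activin+BMP4 and 21.9, 22.7 and 22.0 CPM at 96 h in BMP4. It was lower in each condition (-0.52 ± 0.06 and -0.56 ± 0.06), with no overlap with untreated cells. ATP5MC2 had 113 ± 2.08, 106 ± 16.4 and 117 ± 2.34 CPM and ATP5MC3 had 165 ± 3.12, 154 ± 0.420 and 158 ± 3.23 CPM in the same order. Their changes were between -0.10 and 0.05, so the change of ATP5MC1 fell on the least counted of the 3.

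**Figure D5:**
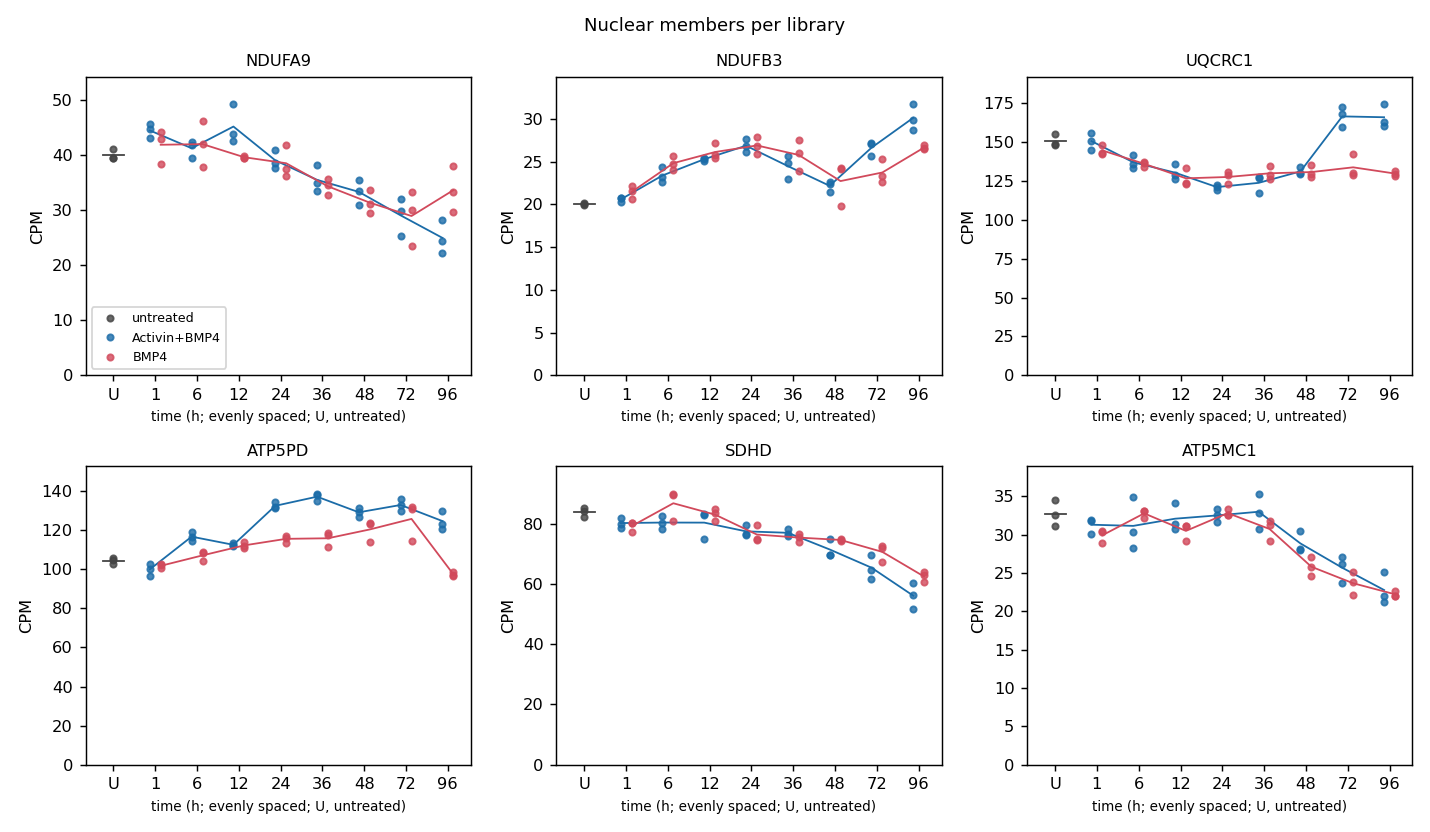
CPM of NDUFA9, NDUFB3, UQCRC1, ATP5PD, SDHD and ATP5MC1, 1 point per library, against time (h, time points evenly spaced, U for untreated), with lines through group means. The conditions separate at 96 h for NDUFA9 (24.9 against 33.6 CPM) and for UQCRC1 and ATP5PD, and run together for ATP5MC1.

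Promoters of the nuclear members were read from RefSeq (GRCh38.p14), which held 55 of the 71, as windows from 250 bases before to 50 after the start. Motifs of NRF1 (GCATGCGC), of ETS factors such as GABPA (CCGGAAG) and of YY1 (AAGATGGCG), regulators known for respiratory genes, were searched as exact letters on both strands. The NRF1 letters were in 11 of 55 windows (20.0%, against 3.1% of all 35116 promoters and 3.7% of 22198 protein-coding ones). The ETS letters were in 15 (27.3%, against 10.3% and 12.8%) and the YY1 letters in 8 (14.5%, against 1.7% and 2.4%). At least 1 of the 3 was in 26 windows (47.3%, against 14.0% and 17.5%). A match is a description of the letters and not a bound site. Shown are stretches free of annotated exons upstream of ATP5PD (chr17:75046986-75047135, - strand) and NDUFB4 (chr3:120596159-120596308, + strand), chosen after their values were seen because both were lower in BMP4 than in Activin+BMP4 at 96 h. Capitals mark the ETS letters in ATP5PD and, in NDUFB4, the NRF1 letters, which match on both strands in overlap.
ATP5PD: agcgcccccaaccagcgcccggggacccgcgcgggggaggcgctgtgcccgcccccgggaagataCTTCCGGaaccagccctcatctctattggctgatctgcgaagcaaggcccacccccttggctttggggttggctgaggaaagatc
NDUFB4: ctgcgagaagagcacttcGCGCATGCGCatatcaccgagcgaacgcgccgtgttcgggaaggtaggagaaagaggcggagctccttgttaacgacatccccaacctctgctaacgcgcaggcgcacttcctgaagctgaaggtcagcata
NDUFB4, an accessory subunit of complex I, had 92.4 ± 2.41 CPM in BMP4 and 118 ± 8.98 CPM in Activin+BMP4 at 96 h, a difference of -0.35 ± 0.05.

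Genes that serve the chain were described from lists, at 96 h and with the calls of each comparison. Beside the counts of each list stand the 41.7% and 36.6% of all genes called at 96 h against untreated cells in Activin+BMP4 and BMP4. Of 20 genes for processing and decay of mitochondrial RNA, 11 fell and 0 rose in Activin+BMP4 (median -0.60, against 0.04 over all genes), a share above that of all genes. In BMP4 0 were called with edgeR at 1.5-fold and 15 were lower at the adjusted p alone (median -0.34), where 65.4% of all genes passed in either direction. REXO2, which degrades short RNA in mitochondria, had 61.9 ± 1.71 CPM in untreated cells, 29.1 ± 0.626 CPM in Activin+BMP4 (-1.09) and 54.4 ± 4.01 CPM in BMP4 (-0.19), and was the gene of this list called between the conditions. LRPPRC, which stabilises mitochondrial messages, fell from 392 ± 5.56 CPM to 245 ± 4.57 CPM in Activin+BMP4 and had 291 ± 3.03 CPM in BMP4. Of 20 genes for transcription and copying of mitochondrial DNA 3 rose and 5 fell in Activin+BMP4, and 3 rose and 3 fell in BMP4 (medians -0.39 and -0.28), shares near or below those of all genes. Among them TWNK, the helicase of the mitochondrial genome, had changes of -1.39 and -0.94. TFAM, which packages that genome and starts its transcription, fell by 0.72 in Activin+BMP4 and had -0.45 in BMP4.

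Of 47 assembly factors 5 rose and 10 fell in Activin+BMP4, and 3 rose and 3 fell in BMP4, shares below the 41.7% and 36.6% of all genes. SDHAF4, which helps assemble complex II, rose from 4.77 ± 0.929 CPM to 22.4 ± 3.11 CPM in Activin+BMP4 and 11.9 ± 0.636 CPM in BMP4. ATPAF2, an assembly factor of complex V, rose to 27.5 ± 1.19 CPM in Activin+BMP4 and had 10.5 ± 1.20 CPM in BMP4 against 10.4 ± 0.938 CPM in untreated cells. Of 17 electron carriers and their enzymes 4 rose and 4 fell in Activin+BMP4, near the share of all genes, and 2 rose and 2 fell in BMP4, below it. CYCS, cytochrome c, fell from 329 ± 6.15 CPM to 182 ± 20.3 CPM in Activin+BMP4 and had 245 ± 14.9 CPM in BMP4.

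Of 15 regulators of the nuclear genes 3 rose and 3 fell in Activin+BMP4, near the 41.7% of all genes called, and 4 rose and 3 fell in BMP4, somewhat above the 36.6% of all genes. The coactivators PPARGC1A and PPARGC1B went opposite ways, with log2 changes of 1.77 and -2.04 in Activin+BMP4 and 1.99 and -1.53 in BMP4. Of 18 genes of the citric acid cycle 2 rose and 0 fell in Activin+BMP4, and 1 rose and 0 fell in BMP4, both below the share of all genes. At the adjusted p alone 10 were higher and 4 lower in Activin+BMP4, and 7 higher and 6 lower in BMP4, where 69.7% and 65.4% of all genes passed. PDHB of pyruvate dehydrogenase rose in Activin+BMP4 (0.67) and IDH2 in BMP4 (1.12). Of 12 nuclear complex IV subunits tested 1 was called in each comparison, again below those shares and the 24.6% between the conditions. It was COX7A1, at 0.660 ± 0.200 CPM at 96 h in Activin+BMP4, 0.108 ± 0.0454 CPM in untreated cells and 0 in all 3 BMP4 libraries, a few counts per library, named after its values were seen. The summed level of these subunits was 1019 CPM in untreated cells, 911 CPM in Activin+BMP4 and 891 CPM in BMP4.

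Other RNA of the mitochondrial genome was also lower late. The ribosomal RNA MT-RNR2 had 3665 ± 271 CPM in untreated cells, 1766 ± 349 CPM at 96 h in Activin+BMP4 and 1655 ± 244 CPM at 96 h in BMP4. MT-RNR1, from the same precursor, had 643 ± 30.8, 176 ± 19.4 and 384 ± 78.2 CPM, and was higher in BMP4 than in Activin+BMP4 by 1.13 (adjusted p = 1.47e-04). Among 10037 genes outside the mitochondrial genome with at least 10 CPM on average, the 5 whose log2 group means followed the mitochondrial sum most closely over the 17 groups were MTATP6P1 (Pearson r 0.994), MTND2P28 (0.975), MTCO1P12 (0.950), PILRB (0.937) and NSUN5P1 (0.919). The first 3 are the nuclear copies described above. The nuclear members had r between -0.67 and 0.76 with the mitochondrial sum (median 0.24).

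Beside the spread of the mitochondrial sum among replicates, the level of 11 RNAs is given, a list chosen after values were seen. They were listed as RNAs thought to stay in the nucleus or keep introns, which was not checked here and need not hold for each, such as SNHG1 and SNHG3. Their summed level was highest in the same library as the mitochondrial sum in 11 of 17 groups, and single RNAs of the list in 6 (MALAT1 and CLK4) to 13 (SNHG3 and LENG8). Single RNAs were lowest in that library in 0 (such as MIAT) to 7 groups (CLK4). The nuclear members' sum was highest there in 5 of 17, and single mitochondrial members, which make up the sum, in 12 to 17. As the list was chosen from these values, the counts are a description only. How many of all genes were highest in that library was not counted. The summed level of the 11 was 972 ± 31.7 CPM in untreated cells, 672 ± 11.2 CPM at 72 h in Activin+BMP4, 880 ± 31.9 CPM at 72 h in BMP4 and 1349 ± 70.8 CPM at 1 h in BMP4. At 96 h it was 776 ± 83.1 CPM in Activin+BMP4 and 983 ± 110 CPM in BMP4. Most members of the list were lower than in untreated cells at 72 h, with a median log2 fold change of -0.46 in Activin+BMP4 and -0.165 in BMP4. In each condition 2 were called lower and 1 higher. Examples are MIAT (-2.27 and -1.30) and NEAT1, the one called higher (1.26 and 1.63 in Activin+BMP4 and BMP4). Whether these RNAs have a part in the fall of the mitochondrial genes was not tested.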

How the data were processed

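RNA-seq of 51 libraries was used, with 22.8 M to 30.4 M counts each, so the precision of single libraries is limited by counting error only for genes with few counts. The authors deposited 1 table of whole-number counts per gene. The submitters' processing notes name cutadapt 1.5, STAR 2.5.2a, RSEM 1.3.0 and GRCh38 without their roles. The annotation release, the use of strand, any filter, and whether the counts are reads or rounded estimates are not given in the sources used here. All columns were matched to samples by their labels (0 belonged to no sample). Symbols were known for 56948 entries with 99.84% of the counts. Gene types and coordinates came from GENCODE release 29 on GRCh38.

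The filter was filterByExpr on the 17 groups with a minimum count of 10 and a minimum total of 15. It left 19603 genes, and counts were scaled with TMM factors of 0.966 to 1.03. The edgeR 4.0.16 quasi-likelihood test (R 4.3.3) was fitted to all 51 libraries with 1 mean per group, and p-values were adjusted over all genes within a comparison. The 27 comparisons were each condition with untreated cells at 8 times, the conditions with each other at 8 times, 96 h with 72 h in each condition and the interaction. CPM use the TMM-scaled totals. The self-test on simulated counts was used to check the script. No 2 replicates agreed within sampling noise (smallest chi-square per degree of freedom 1.99).

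Alternatives were other scalings (RLE factors, none, totals without mitochondrial genes), other filters, DESeq2 1.42.0, only the groups compared, a replicate block, other fold thresholds and leaving out each library. Any member could be named. Full values were given for the mitochondrial sum, its highest and lowest gene and MT-ND6, the nuclear members called at 96 h and the paralogues, and for up to 3 called genes a list with at least 5 CPM. Further nuclear members were named after their values were seen. The members and the lists were chosen with earlier results of these data known.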

Additional observations from a re-analysis of the deposited data

Results flagged for a closer look

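For 3 mitochondrial genes the change from 72 h to 96 h differed between the conditions by a test of the difference itself (edgeR interaction). The change in BMP4 minus that in Activin+BMP4 was -0.71 on the log2 scale for MT-ND2, -1.0 for MT-ND5 and -0.98 for MT-ND6. MT-ND5 had 316, 487 and 498 CPM at 72 h and 1085, 652 and 894 CPM at 96 h in Activin+BMP4, against 745, 370 and 685 CPM and 376, 570 and 878 CPM in BMP4. When the fit held just the groups compared, the adjusted p was 0.0936, 0.143 and 0.132 in that order, and without replicate 1 of any of the 4 groups none of the 3 was called.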

How the results depend on the processing

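Over all times of a comparison, the mitochondrial genes called were 20 in Activin+BMP4 against untreated cells, 25 in BMP4 against untreated cells, 1 between the conditions and 16 from 72 h to 96 h, and the nuclear members called were 3, 0, 0 and 0. With RLE factors, no factors, library totals without mitochondrial genes or DESeq2 these 8 counts stayed within 1.5 times. Without a fold threshold the nuclear counts were 196, 177, 73 and 33, and the mitochondrial count between the conditions was 3. At 2-fold there were 0 nuclear calls in Activin+BMP4, 0 mitochondrial calls between the conditions and 1 from 72 h to 96 h. When the fit held just the groups compared, 6 nuclear members were called in Activin+BMP4 and 2 mitochondrial genes between the conditions. A stricter filter gave 2 of the latter. Without the filter 3 were called between the conditions and 1 nuclear member in BMP4, in a fit that gave all genes 1 shared spread (infinite prior degrees of freedom against 6.54), so its p-values do not rest on a gene's own replicates. Directions were checked for 91 mitochondrial and 48 nuclear pairs of a gene and a comparison. None that passed at the adjusted p in the main fit turned in any alternative, and neither did the late ratios. Turns among pairs that did not pass were not counted.

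Leaving out 1 library at a time, the mitochondrial counts ran from 19 to 23, 24 to 25, 0 to 9 and 8 to 24, and the nuclear ones from 3 to 8, 0 to 1, 0 to 0 and 0 to 0, in the same order. The nuclear count in Activin+BMP4 was 5 without untreated replicate 1 and 8 without untreated replicate 3. The log2 ratio of mitochondrial to nuclear counts against untreated cells ran from -1.61 to -1.36 at 72 h and -0.80 to -0.45 at 96 h in Activin+BMP4, and from -1.31 to -0.82 and -1.33 to -0.76 in BMP4. It moved by less than the replicate SD with nuclear copies added, with complex IV added or as a mean of log2 levels.

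No pairing by replicate number was seen on average: deviations from group means of same-numbered libraries had a mean correlation of 0.000 (-0.45 to 0.57). Such a mean cannot exclude pairing within a part of the groups. With replicate number as a block, the mitochondrial counts were 20, 25, 1 and 16 and the nuclear ones 3, 0, 0 and 0, and no other call changed. Depth limits COX7A1, which rests on few counts, and the level of UQCRHL is uncertain because it shares sequence with UQCRH.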
